A study of Mus musculus with 42 samples.

Results

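The Hmgn genes encode high mobility group nucleosome-binding proteins, and the 4 members followed here were Hmgn1, Hmgn2, Hmgn3 and Hmgn5. They were chosen by name, as 4 of the 52636 gene lines counted in each culture library, together with every deposited peak that names 1 of them, 18 peaks in all over 6 peak lists. HMGN proteins bind the nucleosome core, compete there with linker histone H1 and loosen compact chromatin, and they are known to mark promoters and enhancers. Hmgn1 is a gene of the Down syndrome region and is triplicated in Ts65Dn mice, whereas the other 3 members lie outside the triplicated segment. HMGN1 and HMGN2 are close relatives that can stand in for each other, HMGN3 is known from glia and from hormone-secreting cells, and HMGN5 is the X-linked member with a long acidic tail.

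Libraries of 3 kinds had been made, 42 in all, from mice of 3 genotypes, euploid, Ts65Dn and Ts65Dn;Brwd1+/-. They were made to see what changes in trisomic brain when 1 of 3 Brwd1 copies is disrupted. Ts65Dn mice carry an additional small chromosome with the distal end of mouse chromosome 16 and the centromere-near end of chromosome 17, and Ts65Dn;Brwd1+/- mice should carry the same chromosome with 1 disrupted copy of Brwd1. All genotypes shared 1 mixed genetic background (DBA/2J and B6EiC3Sn/J), and all cultures had been treated with AraC, which stops dividing glia. The cells had been kept in culture before RNA was collected, so RNA levels are those of cultured cells and not of the embryonic forebrain. RNA-seq came from primary neuronal cultures of forebrain at embryonic day 16 (3 libraries per genotype, labelled as pooled male and female), ChIP-seq for SMARCA2/4 (the ATPases of the BAF chromatin remodelling complex) from hippocampi of males that were 6 to 8 weeks old (4 immunoprecipitated and 4 input libraries per genotype, 2 animals pooled in each), and ATAC-seq, which reads open chromatin, from sorted neuronal nuclei of hippocampus of adult males of 6 weeks (3 libraries per genotype). The methods describe cortices dissociated embryo by embryo, but the labels do not say how many embryos or litters stand behind the 3 libraries of a genotype, so p-values measure the spread between these libraries.

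Total counts in genes lay between 17270070 and 25892802 per culture library, and the 4 members passed the filter on low counts that left 17173 genes. Hmgn1 had between 1496 and 4514 counts, Hmgn2 between 668 and 1805, Hmgn3 between 831 and 1857, and Hmgn5 between 287 and 671, so the counting error of a single value lay between 1.49% for Hmgn1 and 5.9% for Hmgn5. Brwd1 stood at 85.9 to 93.2 CPM (counts relative to the TMM-scaled library total) in euploid and at 125 to 129 CPM in Ts65Dn. In the libraries labelled Ts65Dn;Brwd1+/- it stood at 124 to 146 CPM, where the label would place RNA of intact copies near the euploid level. The paper used a mutant Brwd1 allele and measured the restored level in embryonic forebrain by qPCR, with primers kept for that purpose. Whether RNA of the mutant copy is among the reads counted here was not tested. Xist, the RNA of the inactive X chromosome, was at 0.526 to 1.12 CPM in all euploid and Ts65Dn libraries and at 1409 to 1982 CPM in the libraries labelled Ts65Dn;Brwd1+/-, and the sum of 4 Y-linked genes was at 194 to 223 CPM in the former and at 0.0557 to 0.149 CPM in the latter. Against their labels no culture library thus showed high levels of both Xist and Y-linked RNA. In every comparison with the libraries labelled Ts65Dn;Brwd1+/- genotype and this sex pattern cannot be told apart.

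Sequences before the RefSeq start are shown first, as the stretches that ATAC-seq peaks of the same genes, described further on, cover in whole or in part. RefSeq promoter windows (GRCm38.p6, from 250 bases before a gene's start to 50 after it) matched 3 of the 4 genes, Hmgn1, Hmgn2 and Hmgn5, which leaves Hmgn3. The stretches printed run 5′ to 3′ on the gene's strand (minus for each) and leave out bases of annotated exons, at chr16:96127730-96127975 (Hmgn1), chr4:133968002-133968241 (Hmgn2) and chrX:109013405-109013630 (Hmgn5). Those of Hmgn1 and Hmgn5 lie before the annotated gene, whereas that of Hmgn2 lies inside it, in an intron of the transcript that starts farther out at base 133968650 and just before the start of another at base 133968001. Capitals mark matches on either strand to CCAAT (the CCAAT box, also read as ATTGG) and GGGCGG (the GC box, also read as CCGCCC).
Hmgn1: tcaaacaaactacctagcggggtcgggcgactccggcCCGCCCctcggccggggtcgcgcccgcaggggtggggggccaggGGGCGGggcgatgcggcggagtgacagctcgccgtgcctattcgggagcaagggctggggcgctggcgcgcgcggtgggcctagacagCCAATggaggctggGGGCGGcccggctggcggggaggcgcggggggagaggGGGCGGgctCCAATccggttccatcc
Hmgn2: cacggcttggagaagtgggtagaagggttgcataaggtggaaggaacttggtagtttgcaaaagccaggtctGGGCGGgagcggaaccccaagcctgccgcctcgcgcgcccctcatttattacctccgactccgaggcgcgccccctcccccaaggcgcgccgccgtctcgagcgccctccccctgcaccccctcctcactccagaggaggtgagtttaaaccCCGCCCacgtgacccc
Hmgn5: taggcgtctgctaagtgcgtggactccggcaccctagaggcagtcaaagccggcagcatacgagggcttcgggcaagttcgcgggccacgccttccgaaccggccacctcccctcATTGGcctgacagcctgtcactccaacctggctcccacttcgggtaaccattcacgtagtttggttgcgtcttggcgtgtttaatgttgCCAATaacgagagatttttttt
Over the whole windows Hmgn1 held 5 GC boxes and 2 CCAAT boxes, Hmgn2 held 2 and 1, and Hmgn5 held 0 and 2. A GC box was found in 35.7% and a CCAAT box in 37.4% of the 32851 RefSeq promoter windows of the same length, and TATAAA, which none of the 3 windows held, in 13.6%. The windows were rich in G and C, with 76.0% in Hmgn1, 65.3% in Hmgn2 and 56.7% in Hmgn5 against a median of 52.7% over all windows. Their ratio of observed to expected CpG was 0.887, 0.786 and 0.956, against a median of 0.384, as in promoters with a CpG island.

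The windows of Hmgn1 and Hmgn2 also shared words of 10 letters, the longest that occur in both on the gene's strand. They are AATCCGGTTC and ATCCGGTTCT, and they were found after the sequences had been read. The 26 bases around the former are chr16:96127727-96127752 in Hmgn1, where it begins 19 bases before the RefSeq start, and chr4:133967953-133967978 in Hmgn2, where it begins at base 22 of the transcript, with the shared letters in capitals.
Hmgn1: cgggctccAATCCGGTTCcatccggt
Hmgn2: ggaggtgaAATCCGGTTCtaaccggt
AATCCGGTTC occurred on either strand in 4 of the 32851 windows (0.0122%), those of Hmgn1, Hmgn2, Crmp1 and Rrp8, and ATCCGGTTCT in 6 (0.0183%), again with Hmgn1, Hmgn2 and Crmp1 among them. Hmgn5 held neither. The words overlap each other in Hmgn2, and a shared word of this kind is a description of the letters only.

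In the cultures Hmgn1 was about 2.19-fold higher in both trisomic genotypes than in euploid and did not differ detectably between them. Hmgn2 was higher in Ts65Dn than in euploid and higher again in the libraries labelled Ts65Dn;Brwd1+/-. Hmgn3 was lower in the libraries labelled Ts65Dn;Brwd1+/- than in either other genotype, and Hmgn5 was higher there than in either. Whether Hmgn2 and Hmgn5 differed from each other in Ts65Dn against euploid was not tested. With the quasi-likelihood test of edgeR and a Benjamini-Hochberg adjusted p under 0.05, 2 of the 4 passed in Ts65Dn against euploid, where 46.7% of all genes tested did, 3 of 4 in Ts65Dn;Brwd1+/- against Ts65Dn (58.1% of all genes) and 4 of 4 in Ts65Dn;Brwd1+/- against euploid (29.2%). The 3 contrasts share libraries and are given side by side.

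**Figure D1:**
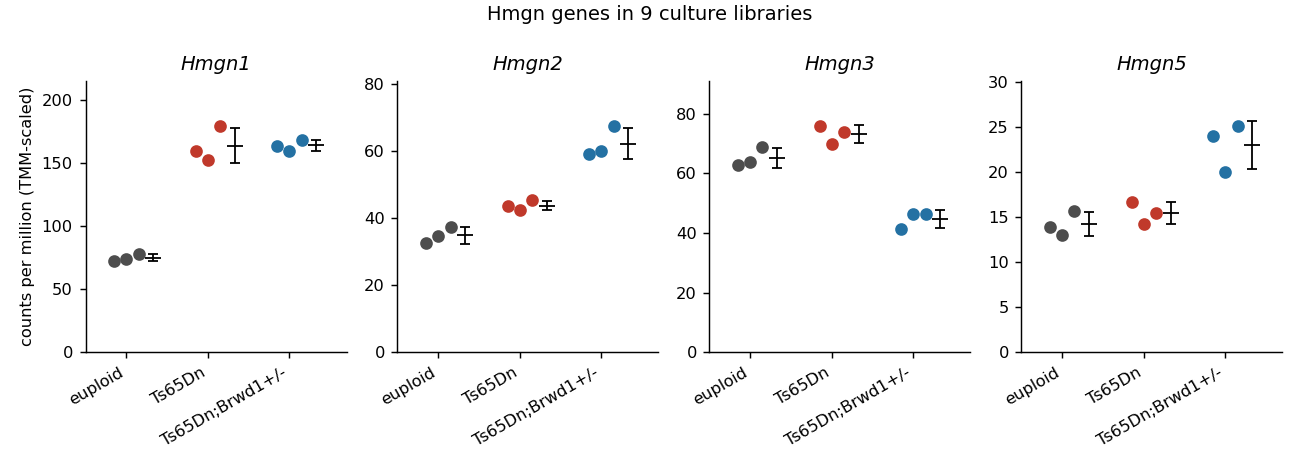
TMM-scaled CPM of the 4 Hmgn genes (one panel each, with its own vertical axis from 0) in the 9 culture libraries, where points are libraries in the order of their replicate number and the black mark to the right of each group is the mean ± SD (n = 3). Hmgn1 is near 75 CPM in euploid and near 164 CPM in both trisomic groups, while Hmgn3 is lowest and Hmgn2 and Hmgn5 are highest in the libraries labelled Ts65Dn;Brwd1+/-.

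Hmgn1 (ENSMUSG00000040681) lies on the minus strand of chromosome 16 at chr16:96120618-96127729 (mm10, as are all positions here), inside the triplicated segment. It stood at 72.6, 74.0 and 77.8 CPM in the euploid cultures, at 159, 153 and 179 CPM in Ts65Dn and at 164, 160 and 169 CPM in the libraries labelled Ts65Dn;Brwd1+/-. Every trisomic library lay above every euploid library by more than the spread within a group, and the range of the libraries labelled Ts65Dn;Brwd1+/- lay inside that of Ts65Dn. The log2 fold change was 1.13 ± 0.08 (SE) in Ts65Dn against euploid, with a 95% confidence interval of 0.96 to 1.30 and an edgeR adjusted p of 5.64e-06. The value in Ts65Dn;Brwd1+/- against euploid was again 1.13 ± 0.08 (adjusted p = 1.11e-05). Between the trisomic genotypes the value was 0.00 with an interval of -0.17 to 0.17 (adjusted p = 0.981), so a difference of more than 1.13-fold in either direction lay outside the interval.

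The euploid interval can be set against gene dosage, since 3 copies in place of 2 give a ratio of 1.5. The fold change of Hmgn1 in Ts65Dn was 2.19, with an interval of 1.94 to 2.47, and it passed a test against a threshold of 1.5-fold (glmTreat of edgeR, adjusted p = 0.000174), as 6.80% of all genes did in the higher direction. In the libraries labelled Ts65Dn;Brwd1+/- the fold change was 2.19, with an interval of 1.95 to 2.47 (adjusted p against 1.5-fold = 0.000311), and 3.31% of all genes passed in the higher direction. Of the 134 tested genes of the triplicated segment, 35 passed that test in Ts65Dn and 15 in the libraries labelled Ts65Dn;Brwd1+/-. Hmgn1 ranked 27th from the highest of these 134 genes in Ts65Dn, and 10th among the 79 with a mean of at least 10 CPM. Its rank in Ts65Dn;Brwd1+/- against euploid was 12th of 134 and 4th of 79. The median log2 fold change of the segment was 0.63 in Ts65Dn, with quartiles at 0.24 and 0.99, and 0.55 in Ts65Dn;Brwd1+/-, with quartiles at 0.27 and 0.74, against 0.04 and -0.02 over all other genes.

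**Figure D2:**
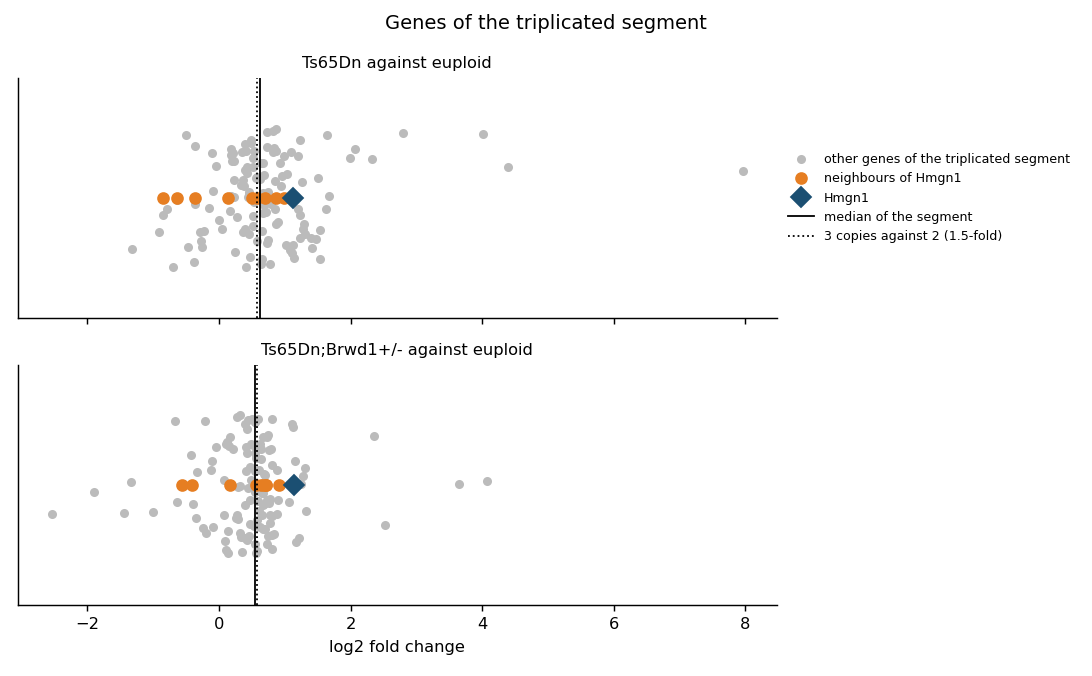
Log2 fold changes against euploid of the 134 tested genes of the triplicated segment, with vertical position within a panel spread at random for the grey points; the solid line is the segment's median and the dotted line 1.5-fold. Hmgn1 (diamond) lies at 1.13 in both panels, to the right of all 9 tested neighbours (orange), whose values run from -0.85 to 0.99 in Ts65Dn.

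The neighbours of Hmgn1 on chromosome 16 moved in both directions. From the centromere outwards they were Ets2, Psmg1 and Brwd1 on one side of Hmgn1, and Wrb, Lca5l, Sh3bgr, B3galt5, Igsf5, Pcp4 and Dscam on the other. In Ts65Dn against euploid 5 of the 9 tested rose and 2 fell (25.6% and 21.1% of all genes), with a median of 0.50 against 0.04 over all genes. Ets2 (a transcription factor) rose by 0.58, Psmg1 (a proteasome assembly chaperone) by 0.70, Brwd1 by 0.50, Lca5l by 0.87 and Sh3bgr by 0.99. Pcp4, a calmodulin-binding protein of neurons, fell by 0.85 and B3galt5, a glycosyltransferase, fell by 0.37. Wrb, the gene next to Hmgn1 and a receptor for tail-anchored proteins, had a log2 fold change of 0.14 (adjusted p = 0.18) and Dscam, a neuronal adhesion molecule, one of -0.64 (adjusted p = 0.15). Igsf5 had too few counts to be tested, with a mean of 0.0191 CPM.

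Between the trisomic genotypes the neighbours again moved apart while Hmgn1 stayed at 0.00. In Ts65Dn;Brwd1+/- against Ts65Dn 4 of the 9 rose and 2 fell (27.6% and 30.5% of all genes), with a median of 0.13. Dscam rose by 1.55, Pcp4 by 1.53, B3galt5 by 0.53 and Wrb by 0.42, whereas Sh3bgr fell by 1.54 and Lca5l fell by 1.28. Ets2, Psmg1 and Brwd1 were at 0.13, 0.02 and 0.13 and did not pass. In Ts65Dn;Brwd1+/- against euploid 5 of 9 passed, each as higher (2400 of all 17173 genes passed as higher and 15.2% as lower), among them Wrb by 0.56 and Psmg1 by 0.72.

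Hmgn2 (ENSMUSG00000003038, chr4:133964738-133968650, minus strand) is the closest relative of Hmgn1 among the members and has 2 copies in every genotype. It stood at 32.4, 34.8 and 37.5 CPM in euploid cultures, at 43.5, 42.4 and 45.3 CPM in Ts65Dn and at 59.1, 60.02 and 67.4 CPM in the libraries labelled Ts65Dn;Brwd1+/-. The 3 groups did not overlap and rose in this order. The log2 fold change was 0.33 ± 0.08 in Ts65Dn against euploid (edgeR adjusted p = 0.00837), 0.51 ± 0.08 in Ts65Dn;Brwd1+/- against Ts65Dn (adjusted p = 0.000396) and 0.83 ± 0.08 in Ts65Dn;Brwd1+/- against euploid (adjusted p = 7.20e-05). On a linear scale these were 1.25-fold, 1.42-fold and 1.78-fold, the last with an interval of 1.57 to 2.02. Hmgn2 has annotated processed copies, of which Hmgn2-ps1 on chromosome 5 had 1 to 9 counts and Hmgn2l6 on chromosome X had 0 to 2 counts per library. Between 18.98 and 21.46% of all counts in a library were of reads that could not be placed uniquely, and reads that Hmgn2 shares with its copies would be among them.

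Hmgn3 (ENSMUSG00000066456, chr9:83109948-83146685, minus strand) moved in the other direction. It stood at 62.8, 63.6 and 68.9 CPM in euploid cultures, at 75.8, 69.7 and 74.0 CPM in Ts65Dn and at 41.3, 46.3 and 46.4 CPM in the libraries labelled Ts65Dn;Brwd1+/-. The last group lay well below both others, and the lowest Ts65Dn library lay just above the highest euploid one. In Ts65Dn;Brwd1+/- against Ts65Dn Hmgn3 fell by 0.71 ± 0.07 on the log2 scale (edgeR adjusted p = 2.95e-05), and in Ts65Dn;Brwd1+/- against euploid it fell by 0.54 ± 0.07 (adjusted p = 0.000538), which is 1.64-fold and 1.46-fold lower. In Ts65Dn against euploid the log2 fold change was 0.17 with an interval of 0.00 to 0.33, and it did not pass after adjustment (adjusted p = 0.0872). The annotation places Gm2065 (8 to 157 counts per library) and Gm29054 (3 to 15 counts) on the opposite strand of Hmgn3. The library kit keeps no strand, so reads from the shared stretches cannot be assigned to either gene.

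Hmgn5 (ENSMUSG00000031245, chrX:109004534-109013404, minus strand) had the lowest counts of the 4. It stood at 13.9, 12.98 and 15.6 CPM in euploid cultures, at 16.7, 14.2 and 15.4 CPM in Ts65Dn and at 23.9, 19.9 and 25.05 CPM in the libraries labelled Ts65Dn;Brwd1+/-. Euploid and Ts65Dn overlapped, and the remaining group lay above both. The log2 fold change was 0.57 ± 0.11 in Ts65Dn;Brwd1+/- against Ts65Dn (edgeR adjusted p = 0.00143) and 0.70 ± 0.11 in Ts65Dn;Brwd1+/- against euploid (adjusted p = 0.0012), or 1.49-fold and 1.62-fold. In Ts65Dn against euploid it was 0.13 with an interval of -0.13 to 0.38 (adjusted p = 0.393), so a rise of up to 1.30-fold lay inside the interval. Hmgn5 is on the X chromosome, and the libraries in which it was higher are those with Xist RNA and without RNA of Y-linked genes.

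**Figure D3:**
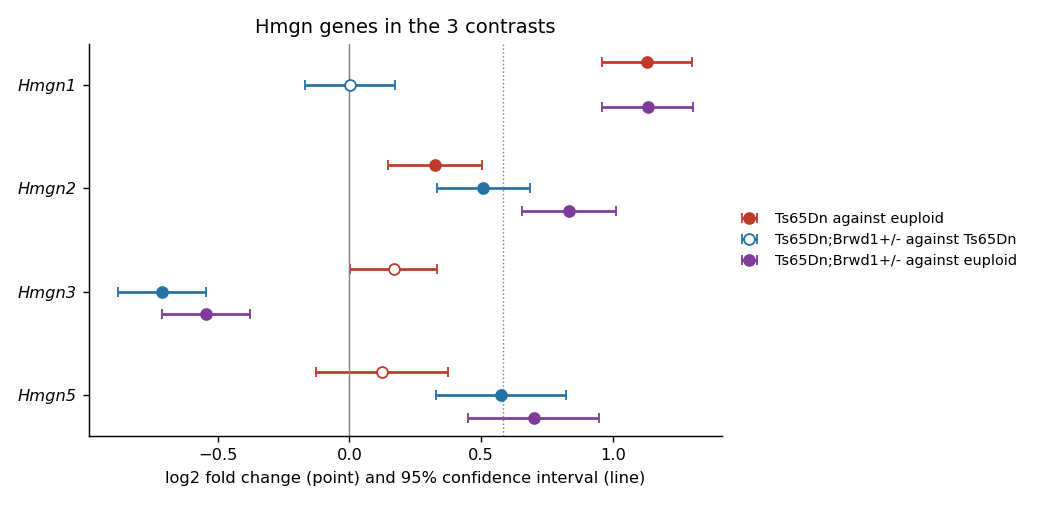
Log2 fold changes of the 4 Hmgn genes in the 3 contrasts, with 95% confidence intervals from the edgeR fit over 9 libraries; filled points had an adjusted p under 0.05, open points did not, and the dotted line marks 1.5-fold. Hmgn1 lies at 1.13 against euploid for both trisomic groups and at 0.00 between them, and Hmgn3 lies at -0.71 and -0.54 in both contrasts with the libraries labelled Ts65Dn;Brwd1+/-.

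Levels of different genes were compared per length, as CPM per kilobase of merged exons (RPKM). In euploid Hmgn3 was the highest at 34.8 ± 1.78 RPKM (SD, n = 3), followed by Hmgn1 at 23.2 ± 0.834, Hmgn2 at 11.4 ± 0.825 and Hmgn5 at 7.33 ± 0.689. In Ts65Dn Hmgn1 came first at 50.8 ± 4.30 RPKM, before Hmgn3 at 39.2 ± 1.68, Hmgn2 at 14.3 ± 0.479 and Hmgn5 at 7.99 ± 0.629. In the libraries labelled Ts65Dn;Brwd1+/- the order was Hmgn1 at 50.9 ± 1.33 RPKM, Hmgn3 at 23.9 ± 1.56, Hmgn2 at 20.3 ± 1.48 and Hmgn5 at 11.9 ± 1.39. No neighbours in these orders had overlapping ranges over libraries. Hmgn2 and Hmgn3 were closest in the libraries labelled Ts65Dn;Brwd1+/-, where the highest Hmgn2 value was 22.02 and the lowest Hmgn3 value 22.09 RPKM. With the length of the longest protein-coding transcript in place of merged exons Hmgn2 stood above Hmgn3 there, at 49.2 against 32.1, and with total counts in place of TMM their ranges overlapped.

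The summed level of the 4 genes was 73.9 to 81.4 RPKM in euploid, 106 to 118 in Ts65Dn and 104 to 112 in the libraries labelled Ts65Dn;Brwd1+/-. Both trisomic groups lay above euploid and overlapped each other. Their make-up differed. Hmgn1 made up 30.3% of the sum in euploid, 45.2% in Ts65Dn and 47.6% in the libraries labelled Ts65Dn;Brwd1+/-. Hmgn3 made up 45.4%, 34.9% and 22.3%, Hmgn2 14.8%, 12.7% and 19.0%, and Hmgn5 9.54%, 7.12% and 11.1%. Per length of the longest protein-coding transcript the shares were 23.7%, 20.3% and 29.1% for Hmgn2, 40.3%, 30.9% and 19.0% for Hmgn3, and 6.31%, 4.69% and 7.04% for Hmgn5, so that Hmgn2 exceeded Hmgn3 in the libraries labelled Ts65Dn;Brwd1+/-. A sum over the members was given no test.

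**Figure D4:**
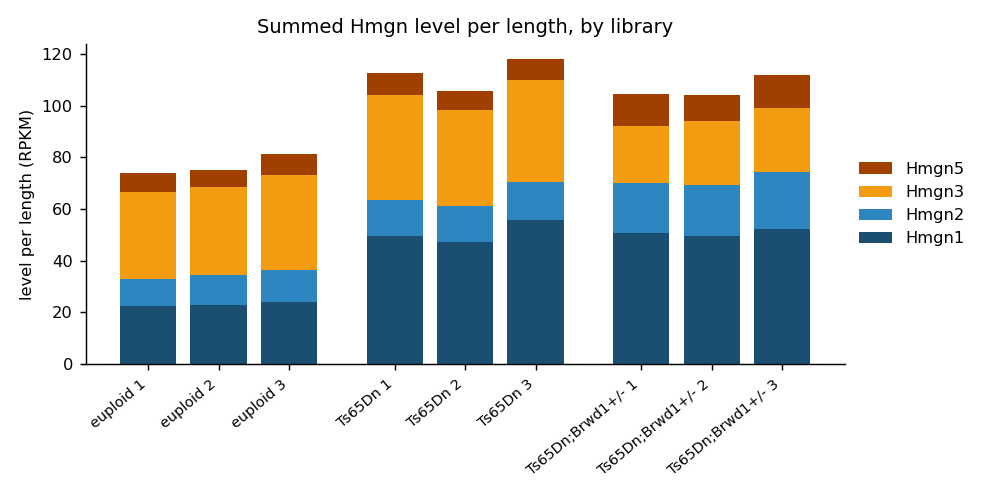
Levels per length (RPKM) of the 4 Hmgn genes stacked for each of the 9 culture libraries, named by genotype and replicate number. The bars sum to 73.9 to 81.4 RPKM in euploid and to between 104 and 118 RPKM in both trisomic groups, with a larger dark blue part for Hmgn1 in every trisomic library and a smaller orange part for Hmgn3 in the libraries labelled Ts65Dn;Brwd1+/-.

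Markers of cell types and states differed between the same groups, and in bulk RNA fewer cells of a type and less RNA per cell cannot be told apart. The counts of marker calls stand against shares over all genes of 25.6% higher and 21.1% lower in Ts65Dn against euploid, 27.6% and 30.5% in Ts65Dn;Brwd1+/- against Ts65Dn, and, in Ts65Dn;Brwd1+/- against euploid, 2400 of 17173 genes higher and 15.2% lower. All 8 cell cycle markers passed as higher in Ts65Dn than in euploid and 7 of 8 as higher in Ts65Dn;Brwd1+/- than in Ts65Dn, and their summed level was 247 to 262 CPM in euploid, 324 to 385 CPM in Ts65Dn and 550 to 558 CPM in the libraries labelled Ts65Dn;Brwd1+/-, the same order as for Hmgn2. Markers of progenitors or radial glia summed to 3423 to 4079 CPM, 6315 to 8248 CPM and 2596 to 3018 CPM in these groups, with 6 of 8 higher and 1 lower in Ts65Dn against euploid, 4 lower and 2 higher in Ts65Dn;Brwd1+/- against Ts65Dn, and 2 higher and 1 lower in Ts65Dn;Brwd1+/- against euploid. Much of this sum was Vim, an intermediate filament gene also of other cells, at means of 2716, 5733 and 1537 CPM. Neuronal markers summed to 3661 to 4562 CPM, 990 to 2368 CPM and 3960 to 4864 CPM, with 7 of 8 lower in Ts65Dn than in euploid and 7 of 8 higher in Ts65Dn;Brwd1+/- than in Ts65Dn. Oligodendrocyte lineage markers summed to 49.5 to 57.5 CPM, 55.3 to 67.3 CPM and 219 to 275 CPM, and 6 of 7 tested were higher and 1 lower in Ts65Dn;Brwd1+/- than in Ts65Dn. Their part in the values of the Hmgn genes was not tested.

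Calls on the other marker lists were as follows, where 46.7%, 58.1% and 29.2% of all genes passed in the 3 contrasts, so that counts such as 2 of 5 are near those of genes at large. In Ts65Dn against euploid 4 of 8 astrocyte markers rose and 2 fell, 6 of 6 GABAergic and 4 of 6 glutamatergic markers fell, 2 of 4 tested endothelium or pericyte markers rose, 3 of 6 fibroblast or meninges markers rose and 3 fell, and 2 of 5 tested microglia markers fell. In Ts65Dn;Brwd1+/- against Ts65Dn 3 of 8 astrocyte markers rose and 5 fell, 6 of 6 GABAergic and 4 of 6 glutamatergic markers rose, 2 of 4 endothelium or pericyte markers fell, 4 of 6 fibroblast or meninges markers fell and 1 rose, and 4 of 5 microglia markers fell. In Ts65Dn;Brwd1+/- against euploid 5 of 5 microglia markers fell, 5 of 6 fibroblast or meninges markers fell and 1 rose, 3 of 6 GABAergic markers rose, 3 of 8 astrocyte markers rose and 1 fell, 8 of 8 cell cycle markers rose, 5 of 7 oligodendrocyte lineage markers rose and 1 fell, and 1 of 8 neuronal markers rose. In that contrast 0 of 6 glutamatergic and 0 of 4 tested endothelium or pericyte markers passed. Of 7 tested oligodendrocyte lineage markers 1 rose and 1 fell in Ts65Dn against euploid. No marker of the neuronal, progenitor, cell cycle, astrocyte or oligodendrocyte lists was at 0 in a whole genotype. The endothelium or pericyte list had 1 marker at 0 in each genotype. The microglia sum was at most 13.98 CPM, with 1 marker at 0 in the libraries labelled Ts65Dn;Brwd1+/-.

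The genes whose log2 CPM was most like that of a member over the 9 libraries, among 14865 genes with a mean of at least 1 CPM, were Gnpda1, Rnf122 and Gm10421 for Hmgn1 (Pearson r between 0.9935 and 0.9943). For Hmgn2 they were Cdk4 (r = 0.994), a kinase of the cell cycle, Mta2 (0.991), a subunit of the NuRD complex, and Gen1 (0.989), a nuclease that resolves DNA junctions. For Hmgn3 they were Layn, Ttc21a and Wdr93 (r between 0.9951 and 0.9961), and for Hmgn5 Nmral1, Wdr55 and Snrpd3 (r between 0.9813 and 0.9824). None of the 12 lies in the triplicated segment. Between members r ran from -0.819 for Hmgn3 and Hmgn5 to 0.930 for Hmgn2 and Hmgn5. The 9 points fall into 3 genotypes and share their libraries, so these values describe the pattern over genotypes and carry no p.

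Other chromatin proteins were read beside the Hmgn genes, and their counts stand against shares over all genes of 25.6% higher and 21.1% lower in Ts65Dn against euploid, 27.6% higher and 30.5% lower in Ts65Dn;Brwd1+/- against Ts65Dn, and 2400 of 17173 genes higher and 15.2% lower in Ts65Dn;Brwd1+/- against euploid. Of 11 tested genes of a list of other HMG proteins, which also holds Supt16, the FACT partner of the HMG protein Ssrp1, 3 rose and 1 fell in Ts65Dn against euploid, 4 rose and 2 fell in Ts65Dn;Brwd1+/- against Ts65Dn, and 5 rose in Ts65Dn;Brwd1+/- against euploid, with medians of 0.02, 0.14 and 0.20. Hmgb2, a DNA-bending protein of dividing cells, had the same order as Hmgn2, with log2 fold changes of 0.38, 0.64 and 1.02 in the 3 contrasts. Hmga1, an architectural protein of progenitors, rose by 1.73 in Ts65Dn;Brwd1+/- against Ts65Dn and Hmgb3 by 0.74. Hmg20b, a subunit of a histone demethylase complex, rose by 0.74 in Ts65Dn against euploid and fell by 0.73 in Ts65Dn;Brwd1+/- against Ts65Dn. Hmga2 rose by 3.89 in Ts65Dn, from a mean of 0.0454 CPM to 0.752 CPM, levels of few counts. Hmgb1, named after its values were seen, was at 0.11, -0.02 and 0.09 and did not pass in any contrast.

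Linker histones compete with HMGN proteins for nucleosomes. Of 10 listed linker histone genes 5 had enough counts to be tested, so the calls say nothing of the others. Whether the amounts of linker histone protein differed was not tested. Of 5 tested 0 passed in Ts65Dn against euploid and 1, H1fx, in each of the other contrasts, where it rose by 0.90 and 0.67, while 46.7%, 58.1% and 29.2% of all genes passed in the 3 contrasts. In Ts65Dn against euploid 0 of the 5 had an unadjusted edgeR p under 0.05, and DESeq2 called 0. H1f0, the histone of resting cells and also named after its values were seen, was at 0.01, -0.09 and -0.08 and did not pass. The summed level of the list was 157 to 180 CPM in euploid, 161 to 167 CPM in Ts65Dn and 158 to 178 CPM in the libraries labelled Ts65Dn;Brwd1+/-, ranges that overlap.

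Of 8 enzymes that modify HMGN proteins or the histone tails beside them, 3 rose and 1 fell in Ts65Dn against euploid, and 4 rose and 1 fell in each of the other contrasts, with medians of 0.07, 0.25 and 0.21. The share of enzymes that passed was thus near that of all genes (46.7% and 58.1%) in the former contrasts, against 29.2% of all genes in Ts65Dn;Brwd1+/- against euploid. Aurkb, a mitotic kinase, rose by 0.56, 0.88 and 1.44. Rps6ka5 and Rps6ka4, the MSK kinases that phosphorylate HMGN1 and histone H3, moved apart in Ts65Dn, where Rps6ka4 rose by 0.46 and Rps6ka5 fell by 0.46. Kat2b, the acetyltransferase PCAF, rose by 0.39 in Ts65Dn and fell by 0.74 in Ts65Dn;Brwd1+/- against Ts65Dn. Ezh2 and Kdm6b, which write and erase methylation of the same histone residue, rose by 0.67 and 0.76 in that contrast.

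Genes that earlier work ties to HMGN proteins were read in the same way. Of 9 tested 7 rose and 2 fell in Ts65Dn against euploid, 3 rose and 5 fell in Ts65Dn;Brwd1+/- against Ts65Dn, and 2 rose and 1 fell in Ts65Dn;Brwd1+/- against euploid, with medians of 0.54, -0.52 and -0.17. Over all genes 25.6% rose and 21.1% fell, 27.6% rose and 30.5% fell, and 2400 of 17173 rose and 15.2% fell in these contrasts. Fos and Junb, immediate early genes, rose by 1.15 and 0.69 in Ts65Dn and fell by 1.35 and 1.47 in Ts65Dn;Brwd1+/- against Ts65Dn. Slc6a9, the glycine transporter linked to HMGN3, fell by 0.84 and then rose by 0.85. Olig1 and Olig2 (regulators of the oligodendrocyte lineage, themselves in the triplicated segment) rose by 1.04 and 0.54 in Ts65Dn, and Olig2 by 1.81 in Ts65Dn;Brwd1+/- against Ts65Dn.

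Hmgn1 can be placed beside a list of other chromatin genes of the segment, of which Brwd1, Chaf1b, Morc3, Setd4 and Dyrk1a could be tested. The list is not complete, as Arid1b, a BAF subunit gene of the segment, was not on it. Arid1b had log2 fold changes of 0.40 in Ts65Dn against euploid, 0.30 in Ts65Dn;Brwd1+/- against Ts65Dn and 0.70 in Ts65Dn;Brwd1+/- against euploid. Of 5 tested 4 rose in Ts65Dn against euploid, 2 rose in Ts65Dn;Brwd1+/- against Ts65Dn and 5 rose in Ts65Dn;Brwd1+/- against euploid, with medians of 0.52, 0.13 and 0.63. Of the 134 tested genes of the segment 92, 34 and 82 rose in these contrasts. Chaf1b, a histone chaperone of DNA replication, rose by 1.47, 1.05 and 2.52. Dyrk1a, a kinase, rose by 0.52 and Morc3, an ATPase of nuclear bodies, by 0.54 in Ts65Dn, and both lay below the 1.13 of Hmgn1. Setd4, a methyltransferase, was at 0.05 in Ts65Dn and did not pass, and it rose by 0.46 in Ts65Dn;Brwd1+/- against Ts65Dn.

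In neuronal nuclei of adult hippocampus, open chromatin peaks named 3 of the 4 genes in euploid and all 4 in both trisomic genotypes. Each list was called once per genotype on pooled or merged libraries, so no replicate error could be had and no test was made. The list of euploid held 15521 peaks, that of Ts65Dn 29195 and that of Ts65Dn;Brwd1+/- 30244, and they named 53.3%, 66.0% and 65.6% of the genes tested in the cultures. With 4 genes these counts cannot be told from the shares over genes at large. All 14 ATAC-seq peaks were classed by the authors as proximal promoter.

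Hmgn1 had 1 ATAC-seq peak per list, over its start. It spanned chr16:96127542-96128311 in euploid, 770 bases with a fold enrichment of 5.73, and chr16:96127303-96128397 in Ts65Dn, 1095 bases with a fold enrichment of 6.29. In Ts65Dn;Brwd1+/- it was 1085 bases wide with a fold enrichment of 4.80. The median proximal promoter peak was 424, 553 and 559 bases wide in these lists, with a median fold enrichment of 4.51, 5.23 and 4.43, so that the Hmgn1 peak was wider and higher than the median peak in each. All 246 printed bases before Hmgn1 lay inside it in all 3 lists.

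Hmgn2 had 2 ATAC-seq peaks per list, at separate annotated starts. The outer peak covered the printed stretch in full in each list and was 442 bases wide in euploid, 715 bases in Ts65Dn and 623 bases in the remaining list, with fold enrichments of 2.82, 3.61 and 3.02. The inner peak was 211, 584 and 579 bases wide, with fold enrichments of 3.04, 4.04 and 3.24. All 6 had a fold enrichment below the median of proximal promoter peaks of their list, while all but the inner euploid peak were wider than the median. Hmgn3 had 1 peak per list, of 315, 398 and 387 bases, and its fold enrichments of 5.98, 7.51 and 7.06 were higher than those of 83.4%, 89.6% and 94.7% of proximal promoter peaks. A second peak, within the annotated span of Hmgn3, named the opposite-strand transcript Gm29054 in all 3 lists, with fold enrichments of 4.86, 6.20 and 5.05.

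Hmgn5 was the member named in some lists only. Its peak was 258 bases wide with a fold enrichment of 5.38 in Ts65Dn and 208 bases wide with 4.28 in Ts65Dn;Brwd1+/-, and the euploid list held none. Of the 226 printed bases 225 lay inside the Ts65Dn peak and 199 inside that of Ts65Dn;Brwd1+/-. The euploid list was the shortest of the 3, and its depth is unknown, so fewer detected peaks in euploid and a difference at Hmgn5 cannot be told apart. By overlap of at least 1 base, all 4 euploid peaks of the family were found again in both trisomic lists, and the 5 peaks of each trisomic list in the other.

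**Figure D5:**
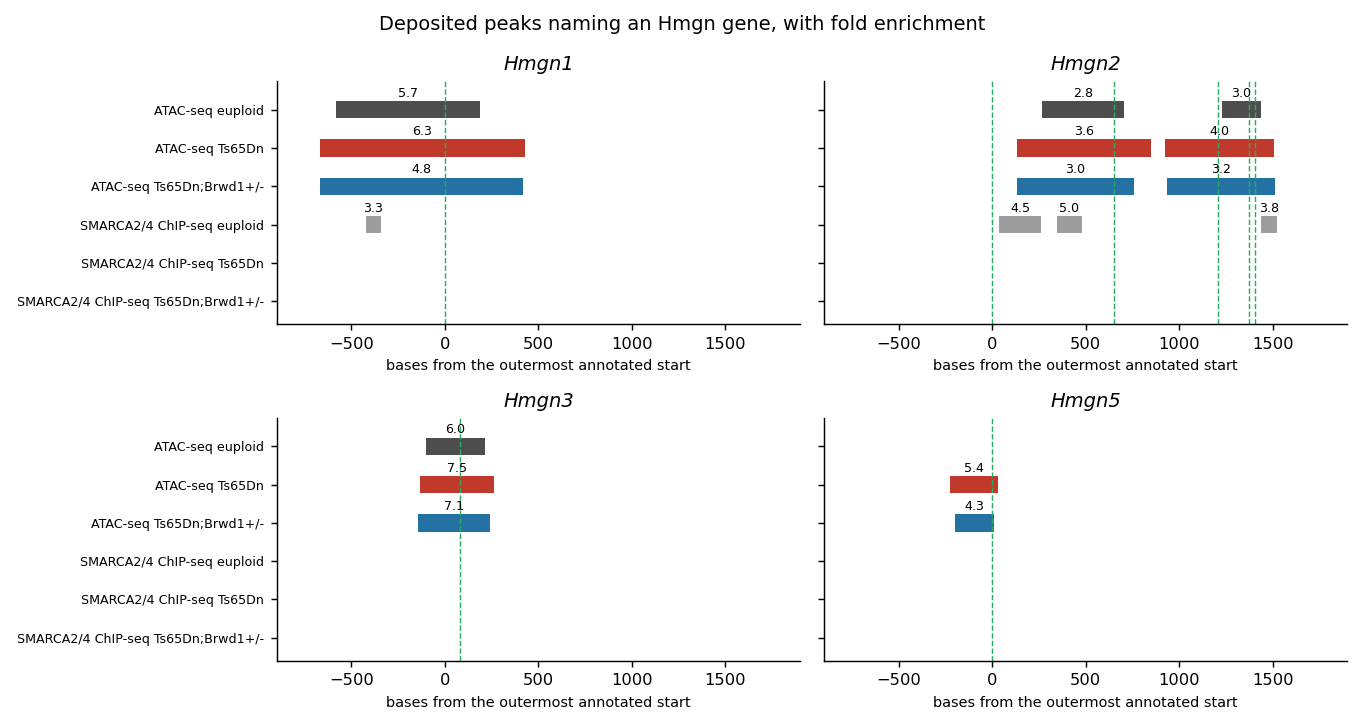
Deposited peaks that name an Hmgn gene in the 3 ATAC-seq and 3 SMARCA2/4 ChIP-seq lists (rows), drawn to scale by distance in bases from the outermost annotated start of the gene in the direction of transcription; numbers above bars are fold enrichments and dashed green lines the starts of the transcripts named. ATAC-seq peaks lie at the starts of Hmgn1, Hmgn2 and Hmgn3 in all lists and at that of Hmgn5 in both trisomic lists, while ChIP-seq peaks are seen in the euploid list only, at Hmgn1 and Hmgn2.

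SMARCA2/4 peaks named Hmgn1 and Hmgn2 in euploid hippocampus and none of the 4 genes in the trisomic genotypes. The euploid list held 22667 peaks and named 38.6% of the genes tested, whereas the Ts65Dn list held 1290 peaks (4.14% of genes) and the Ts65Dn;Brwd1+/- list 1873 (4.89%). At these shares 0 of 4 genes is near the level of genes at large, and the missing peaks cannot be told apart from the smaller size of the trisomic lists. Hmgn1 had 1 peak at chr16:96128071-96128152, at a distance of -382 bases from its annotated start as the list gives it, with a fold enrichment of 3.27 and a q-value of 0.054, which is above 0.05. Hmgn2 had 3, at chr4:133968390-133968612 (fold enrichment 4.47, q = 0.000208), chr4:133968172-133968305 (5.02, q = 1.25e-05) and chr4:133967128-133967214 (3.77, q = 0.00668). The strongest of these was higher than 95.4% of the peaks in the euploid list. A further euploid peak, within Hmgn3, named Gm29054 (fold enrichment 3.07, q = 0.0608).

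The SMARCA2/4 peaks outside annotated exons were the one before Hmgn1 and the strongest one of Hmgn2, and their letters are shown as the sites where the remodeller was read at the family. They are given 5′ to 3′ on the minus strand (GRCm38.p6), with GC boxes and CCAAT boxes in capitals.
Hmgn1, chr16:96128071-96128152: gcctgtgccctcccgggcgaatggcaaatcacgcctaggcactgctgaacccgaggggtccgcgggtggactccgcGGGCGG
Hmgn2, chr4:133968172-133968305: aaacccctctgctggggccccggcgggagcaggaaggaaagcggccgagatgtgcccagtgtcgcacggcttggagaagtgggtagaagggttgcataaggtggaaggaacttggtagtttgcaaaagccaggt
The former holds 1 GC box and the latter neither motif. The latter overlaps the printed stretch of Hmgn2 by 70 bases. Of the 4 euploid ChIP-seq peaks 3 overlapped a euploid ATAC-seq peak by at least 1 base, 2 of them over at least 50% of the shorter peak, and all 4 overlapped ATAC-seq peaks of both trisomic lists.

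The 50 kb on either side of Hmgn1 lie inside the triplicated segment. There the euploid ATAC-seq list held 5 peaks, the Ts65Dn list 6 and the Ts65Dn;Brwd1+/- list 9. The whole lists held 15521, 29195 and 30244 peaks, and the part of list size and copy number in these counts was not tested. The peaks lay at Brwd1, Hmgn1 and Wrb in each list and at Lca5l in both trisomic lists. Those of Ts65Dn;Brwd1+/- also lay at Gm15341 and a stretch between genes. The Wrb promoter peak had fold enrichments of 6.15, 7.22 and 5.03 in the 3 lists, in the same order as the Hmgn1 peak. The medians over all proximal promoter peaks, 4.51, 5.23 and 4.43, had this order too. The only other SMARCA2/4 peak in that interval was at Brwd1 in euploid, with a fold enrichment of 3.97 and a q-value of 0.00227.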

How the data were processed

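RNA-seq reads had been aligned to mm10 by the authors with HISAT2 and deposited as raw read counts per gene, 1 file per library. The paper names featureCounts, while the 5 summary lines of each file are those of htseq-count, and a strand setting is not given in the sources used here. These lines, 37.45 to 40.04% of counts, were left out. The authors called peaks with MACS, 1 list per genotype and assay, and deposited for each peak a fold enrichment (a ratio) and a q-value. Replicates had been pooled or merged, and the depth of these libraries is unknown. The shortest ATAC-seq peak is 200 bases long when both ends are counted, and positions were read so. Groups came from the labels.

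Genes were kept by filterByExpr, scaled by TMM and fitted over all 9 libraries with genotype as the only factor in edgeR 4.0.16 (R 4.3.3), after the steps had been tested on simulated data. The quasi-likelihood test was used, p-values were adjusted by Benjamini-Hochberg and calls made under 0.05, and glmTreat against 1.5-fold. Log2 CPM used a prior count of 2. Lengths and positions came from GENCODE vM21 and RefSeq GRCm38.p6, the build of the files. Alternatives were other scalings and filters, DESeq2 1.42.0, a factor of unwanted variation, a replicate block, leaving libraries out, other lengths and other peak rules. The percentages given as counting error cover that error only. Confidence intervals of fold changes come from the edgeR fit and include the spread between libraries.

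The members and the gene lists were chosen with earlier results of these data known. Named were the 4 members, the label checks Brwd1, Xist and Y-linked genes, up to 3 called genes per list and contrast with the largest change and those needed to read a count, every neighbour of Hmgn1, and the 3 genes most like each member.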

Additional observations from a re-analysis of the deposited data

How the results depend on the processing

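The log2 fold changes of the 4 members in 3 contrasts were recomputed under 18 alternatives each (other scalings, filters, DESeq2, 1 factor of unwanted variation, the replicate block, only the 2 genotypes compared, and each of 9 libraries left out), and 212 of 216 values kept their direction and their side of the threshold. The other 4 were all of Hmgn1 in Ts65Dn;Brwd1+/- against Ts65Dn, a value of 0.00 that passed under none: it was -0.020 with upper quartile scaling, -0.019 without Ts65Dn replicate 1, -0.047 without Ts65Dn replicate 2 and -0.014 without Ts65Dn;Brwd1+/- replicate 3, in a range of -0.047 to 0.071 over libraries left out. Hmgn1 in Ts65Dn against euploid lay between 1.06 and 1.18 and passed the test against 1.5-fold under all 18, with an adjusted p of at most 0.00186.

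Replicate numbers are shared between genotypes, but the labels name no shared litter, batch or day, and only 6 of 9 pairs of libraries with the same number had deviations correlated above 0.1 (r between -0.16 and 0.28), so the numbers were not taken as pairs. Pairs with different numbers were above 0.1 in 4 of 18 cases, a smaller share. As a hint from the data towards pairing, 7 of 9 libraries correlated best with one of their own number. With the replicate number as a block Hmgn1 was at 1.13 (adjusted p = 8.18e-06) and Hmgn2 at 0.33 in Ts65Dn against euploid, Hmgn3 at -0.71 in Ts65Dn;Brwd1+/- against Ts65Dn, and 8349 genes passed in Ts65Dn against euploid in place of 8017. The block changed no call on a member.

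Per length of the longest protein-coding transcript the levels in euploid, Ts65Dn and Ts65Dn;Brwd1+/- were 34.4, 75.3 and 75.5 for Hmgn1, 27.6, 34.6 and 49.2 for Hmgn2, 46.8, 52.6 and 32.1 for Hmgn3, and 116.1, 170.5 and 168.6 for the sum. Hmgn5 did not move, as both lengths are the same. Peak counts changed by at most 1 per list under the other peak rules. What limits the values is 3 libraries per genotype, 1 peak list per genotype and assay, and reads that are not placed uniquely.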
